A study of Mus musculus with 37 samples.

Results

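The genes described here are 10 components of Jak, Stat and gp130 signaling in the developing mouse lung: the receptor chains Il6ra, Osmr and Il6st (gp130), the kinases Jak1 and Jak2, the transcription factors Stat3, Stat6 and Stat5a, and the feedback inhibitors Socs2 and Socs3. They were chosen by name as members of this pathway, and they are 10 of the 19938 genes that the array names with a single symbol; all 10 were measured. Lung RNA was profiled across late gestation in 2 inbred strains whose pregnancies differ in length, C57BL/6J (B6, shorter) and A/J (longer), to relate the timing of lung maturation to the timing of birth. B6 lungs were taken daily between E15.5 and E18.5 and on the day of birth (PN0), and A/J lungs daily between E15.5 and E20.5 and at PN0. No animal was treated or carried an engineered allele. Each group held 3 replicates, each a pool of 3 right lungs from the male pups of 1 litter, so that every value is an average over littermates and over all cell types of the lung. PN0 does not mark equal ages: in B6 it followed E18.5 by about a day, and in A/J it followed E20.5 by a few hours.

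In this pathway a cytokine such as interleukin 6 or oncostatin M binds its own receptor chain (Il6ra or Osmr), which then pairs with the shared signal transducer gp130. Jak kinases bound to the receptors phosphorylate each other and the receptor tails, Stat proteins dock there, are phosphorylated, pair up and move to the nucleus, and Socs proteins, whose genes are themselves Stat targets, switch the signal off. In the lung, Stat3 is known for protecting the respiratory epithelium and supporting surfactant production, Stat6 transmits interleukin 4 and interleukin 13 signals, and Stat5 transmits growth hormone, prolactin and several blood cell cytokines. The arrays measure RNA and show neither protein nor phosphorylation.

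Each gene is given with its probe set and with its position in the RefSeq annotation of GRCm38.p6. Values are log2 expression levels, in which a difference of 1 is a doubling, and they are compared within a gene and not between genes. Array medians over all 35556 probe sets lay between 6.34 and 6.54. The 6 lung epithelium markers, surfactant genes among them, averaged 9.67 to 11.46 in all 36 replicates. Over the 21789 probe sets tested, the 3 A/J E18.5 arrays had higher medians (7.07 to 7.13) than the arrays of the other 11 groups (6.86 to 7.0), and where centring each array on its median changed a call with that group or moved its value by over 1.5 times, the centred value is given too. Markers of neighbouring organs were uneven: 5 replicates stood more than 1 log2 unit above the lowest of their group in liver or heart markers, and 5 in esophagus markers, with A/J E19.5 replicate 2 in both sets. All 3 A/J E18.5 replicates were high in esophagus markers (7.02 to 7.33), so this rule leaves them in. At B6 E18.5 an additional array was labelled 2b beside array 2, and it was averaged with array 2, which left 36 replicates from 37 arrays. The labels do not say whether it repeats array 2 or is another litter. Over the 21789 probe sets tested it had the same correlation with arrays 1, 2 and 3 (r = 0.993). Array 2 had r = 0.988 with array 1 and with array 3, while arrays 1 and 3 had r = 0.994 with each other. The second B6 E18.5 value of each gene is thus the mean of 2 arrays that may not share a litter.

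All 10 genes changed with age in both strains by limma's F test at an adjusted p under 0.01, a result that 51.8% of all probe sets gave in B6 and 60.0% in A/J. When a 2-fold range between ages was also required, 5 genes remained in B6 (Osmr, Il6ra, Stat3, Socs2 and Socs3), against a background of 14.4%. The same 5 and Stat6 remained in A/J, against 17.8%. Between E15.5 and PN0, 9 of the 10 were higher at PN0 in each strain and none was lower, at an adjusted p under 0.05. Of all probe sets, 24.4% were higher and 26.6% lower at PN0 in B6, and 25.2% were higher and 25.8% lower in A/J. The median difference of the 10 genes was 0.89 in B6 and 1.19 in A/J on the log2 scale, beside medians over all probe sets of -0.003 in B6 and -0.037 in A/J. Stat5a was the gene not called in either strain.

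**Figure D1:**
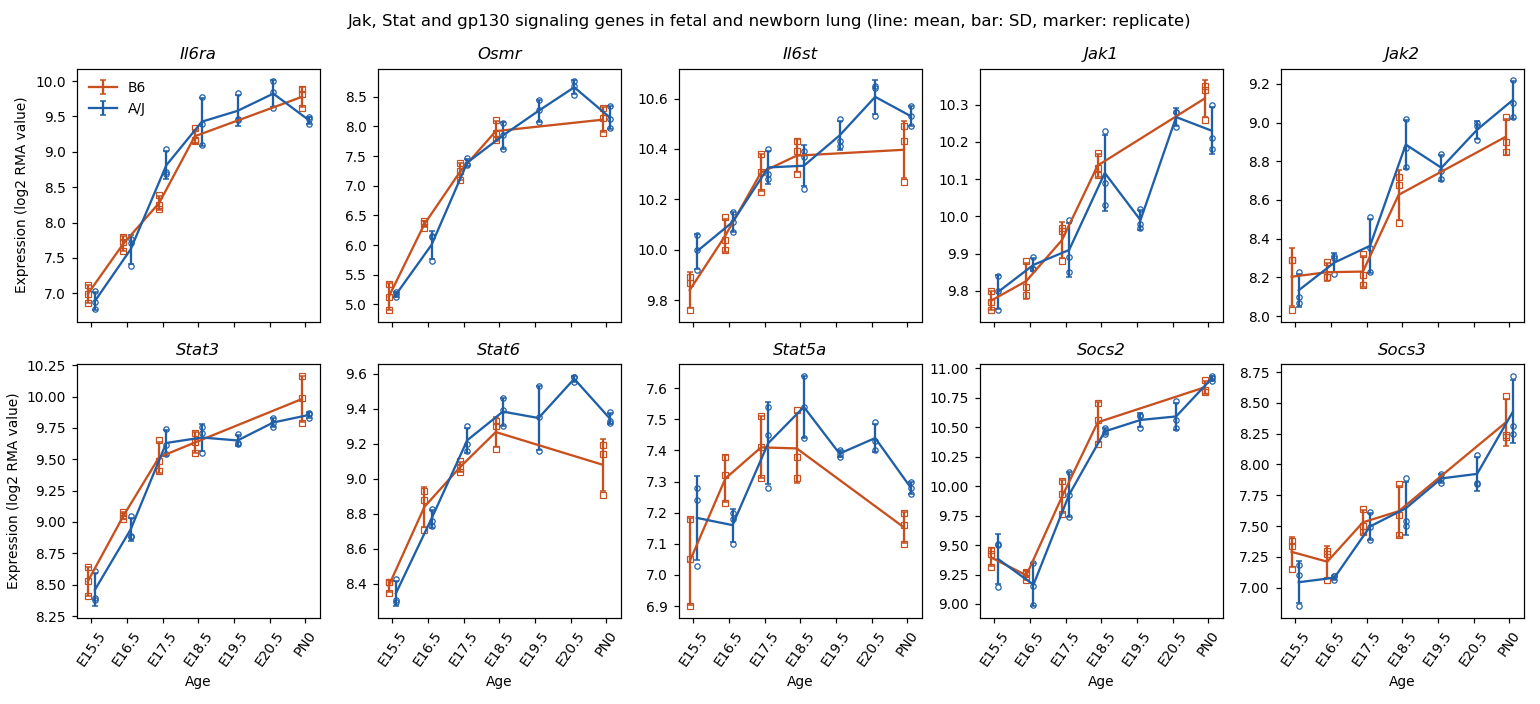
Expression of the 10 genes by age, 1 panel a gene, in B6 (orange squares) and A/J (blue circles); the vertical axes give log2 RMA values on a scale of each panel's own, markers are replicates, lines join group means and bars are SDs (n = 3). Osmr climbs furthest in both strains, with means of 5.13 at E15.5 and 8.11 at PN0 in B6, while Stat5a is highest at E17.5 in B6 and E18.5 in A/J and lower again at PN0.

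The ligand-binding receptor chains showed the largest differences among the 10 genes. Osmr, the oncostatin M receptor chain (probe set 10427471, chr15:6813568-6874968), measured 8.14, 8.31 and 7.89 in B6 at PN0, against 5.13, 5.35 and 4.90 in B6 at E15.5. A/J lungs measured 8.13, 8.35 and 7.97 at PN0, against 5.12, 5.20 and 5.17 at E15.5. Every newborn lung stood above every E15.5 lung of its strain by more than 2 log2 units. The difference was 2.99 ± 0.13 (SE) in each strain, 7.93-fold, with limma adjusted p-values of 3.1e-18 in B6 and 2.5e-18 in A/J. Osmr was already higher at E16.5 than at E15.5, by 1.23 in B6 (adjusted p = 6.3e-08) and by 0.84 in A/J (adjusted p = 5.4e-05). In A/J its mean was highest at E20.5, at 8.66 ± 0.12 (SD, n = 3), which is 11.3-fold above E15.5.

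Il6ra, the interleukin 6 receptor chain (probe set 10499655, chr3:89869324-89913196), measured 9.82, 9.89 and 9.62 in B6 at PN0, against 6.86, 6.99 and 7.12 in B6 at E15.5. In A/J it measured 9.49, 9.46 and 9.39 at PN0, against 6.77, 7.03 and 6.87 at E15.5. These groups did not overlap in either strain. Il6ra was 6.90-fold higher at PN0 in B6 (2.79 ± 0.14, adjusted p = 3.2e-17) and 5.88-fold higher in A/J (2.56 ± 0.14, adjusted p = 1.8e-16). Its A/J mean also was highest at E20.5, at 9.82 ± 0.19, 7.64-fold above E15.5.

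Il6st encodes gp130, the chain that the receptors for interleukin 6, oncostatin M, leukemia inhibitory factor and related cytokines share, and it changed far less. Its probe set 10407173 (chr13:112464070-112506860) measured 10.43, 10.49 and 10.27 in B6 at PN0, against 9.87, 9.89 and 9.76 in B6 at E15.5. A/J lungs had 10.57, 10.53 and 10.49 at PN0, against 9.92, 10 and 10.06 at E15.5. The groups were separate, and the differences were 0.56 ± 0.07 in B6 (1.47-fold, adjusted p = 2.4e-08) and 0.54 ± 0.07 in A/J (1.45-fold, adjusted p = 4.9e-08). Both lie under a fold of 1.5.

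Of the kinases, Jak1, which associates with gp130 and many other cytokine receptors, stood within a narrow range. Jak1 (probe set 10514668, chr4:101151974-101265282) measured 10.26, 10.34 and 10.35 in B6 at PN0, against 9.80, 9.77 and 9.75 in B6 at E15.5, a difference of 0.54 ± 0.06 (adjusted p = 2.0e-09). A/J lungs had 10.21, 10.30 and 10.18 at PN0, against 9.80, 9.84 and 9.75 at E15.5, a difference of 0.43 ± 0.06 (adjusted p = 1.7e-07). The groups did not overlap, and the change was under 1.5-fold in both strains. Jak2, the kinase of the growth hormone, erythropoietin and interferon gamma receptors (probe set 10462363, chr19:29251803-29313095), measured 8.85, 9.03 and 8.90 in B6 at PN0, against 8.29, 8.29 and 8.03 in B6 at E15.5. Its A/J values were 9.03, 9.22 and 9.10 at PN0, against 8.23, 8.10 and 8.07 at E15.5. Newborn lungs again stood above all E15.5 lungs, by 0.72 ± 0.09 in B6 (1.65-fold, adjusted p = 1.1e-08) and by 0.98 ± 0.09 in A/J (1.98-fold, adjusted p = 1.6e-11). In B6, Jak2 stayed near its E15.5 mean of 8.20 until E17.5 (8.23), and at E18.5 its mean was 8.62. In A/J it was higher at E18.5 than at E17.5 by 0.52 (adjusted p = 4.4e-05), and by 0.41 with arrays centred on their medians (adjusted p = 0.00193).

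Stat3, the factor that gp130 receptors chiefly activate (probe set 10391301, chr11:100886806-100939594), measured 9.99, 10.16 and 9.79 in B6 at PN0, against 8.41, 8.53 and 8.64 in B6 at E15.5. Its A/J values were 9.87, 9.83 and 9.86 at PN0, against 8.39, 8.38 and 8.61 at E15.5. No newborn value fell within the E15.5 range. Stat3 was 2.74-fold higher at PN0 in B6 (1.45 ± 0.09, adjusted p = 3.0e-15) and 2.63-fold higher in A/J (1.39 ± 0.09, adjusted p = 6.8e-15). Most of this difference was in place by E17.5, when Stat3 was 0.99 above E15.5 in B6 and 1.17 above it in A/J.

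Stat6 (probe set 10366956, chr10:127642955-127660987) measured 9.19, 8.91 and 9.14 in B6 at PN0, against 8.35, 8.41 and 8.41 in B6 at E15.5. A/J lungs had 9.38, 9.33 and 9.32 at PN0, against 8.30, 8.43 and 8.31 at E15.5. The groups were separate in both strains, with differences of 0.69 ± 0.08 in B6 (1.61-fold, adjusted p = 9.0e-09) and 0.997 ± 0.08 in A/J (1.99-fold, adjusted p = 3.3e-12). Its highest mean preceded birth, at E18.5 in B6 (9.27 ± 0.09) and at E20.5 in A/J (9.57 ± 0.02).

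Stat5a, the neighbour of Stat3 on its chromosome (probe set 10381172, chr11:100859351-100885169), took a different course. It measured 7.10, 7.20 and 7.16 in B6 at PN0, against 6.90, 7.18 and 7.05 in B6 at E15.5, and in A/J 7.26, 7.28 and 7.30 at PN0, against 7.28, 7.03 and 7.24 at E15.5. The groups overlapped, and the differences of 0.11 in B6 (95% interval -0.06 to 0.28, adjusted p = 0.277) and 0.10 in A/J (-0.07 to 0.26, adjusted p = 0.347) did not pass the test. In between it was higher than at E15.5, by 0.37 at E17.5 in B6 (adjusted p = 4.4e-04) and by 0.36 at E18.5 in A/J (adjusted p = 4.2e-04). With arrays centred on their medians the A/J value was 0.21 (adjusted p = 0.0276).

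Socs2, best known as the inhibitor of growth hormone receptor signaling (probe set 10394674, chr10:95383903-95417321), measured 10.90, 10.80 and 10.81 in B6 at PN0, against 9.46, 9.42 and 9.31 in B6 at E15.5. Its A/J values were 10.92, 10.93 and 10.89 at PN0, against 9.50, 9.51 and 9.14 at E15.5. All newborn values lay above all E15.5 values, by 1.44 ± 0.10 in B6 (2.71-fold, adjusted p = 2.1e-13) and 1.53 ± 0.10 in A/J (2.89-fold, adjusted p = 4.6e-14). Its lowest mean was at E16.5 in both strains, 9.24 in B6 and 9.16 in A/J. A second Socs2 probe set gave 1.11 in B6 and 0.92 in A/J for the same difference.

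Socs3, the inhibitor that binds gp130 and the Jak kinases together (probe set 10393449, chr11:117966079-117970336), measured 8.22, 8.24 and 8.56 in B6 at PN0, against 7.15, 7.34 and 7.38 in B6 at E15.5. A/J lungs had 8.31, 8.72 and 8.25 at PN0, against 6.85, 7.10 and 7.18 at E15.5. Here too the groups did not overlap. Socs3 was 2.07-fold higher at PN0 in B6 (1.05 ± 0.12, adjusted p = 9.5e-09) and 2.61-fold higher in A/J (1.38 ± 0.12, adjusted p = 2.8e-11). A second probe set that carries the Socs3 name was dimmer and did not pass the test, with 0.11 in B6 (adjusted p = 0.541) and 0.17 in A/J (adjusted p = 0.311). The mean of both probe sets was 0.58 higher at PN0 in B6 and 0.78 higher in A/J, and both of these values were called.

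The ages at which the genes first stood apart from E15.5 followed no single step. In B6, 6 genes were first called at E16.5 (Osmr, Il6ra, Il6st, Stat3, Stat6 and Stat5a), 2 at E17.5 (Jak1 and Socs2) and 2 at E18.5 (Jak2 and Socs3). In A/J, 4 were first called at E16.5 (Osmr, Il6ra, Stat3 and Stat6), 5 at E17.5 and Jak1 at E18.5. Counting every call at an age and not only first calls, 6 genes were higher than at E15.5 at E16.5 in B6 and 4 in A/J. At E17.5 the counts were 8 in B6 and 9 in A/J, at E18.5 10 in each strain, and none was lower. Of all probe sets, 6.84% were higher at E16.5 in B6 and 4.69% in A/J, and 22.1% at E18.5 in B6 and 31.3% in A/J. At E17.5, 40.1% differed in either direction in B6 and 37.6% in A/J. Both Socs genes were thus called later than the 2 ligand-binding receptor chains and Stat3 in each strain. With arrays centred on their medians, the first call came later for Il6st (E17.5), Jak1 (E18.5) and Socs3 (PN0) in B6 and for Jak2 (E18.5) in A/J. An onset is the age of a first call, and onsets were not compared between the strains by a test.

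The last fetal age and birth were compared next, over about a day in B6 and over hours in A/J. In B6, 6 genes were higher at PN0 than at E18.5 (12.5% of all probe sets were higher) and Stat5a was lower (14.4% were lower). In A/J, Socs3 and Socs2 were higher at PN0 than at E20.5 and Osmr, Il6ra and Stat6 were lower, where 20.1% of all probe sets changed in either direction and 8.09% were lower. Read from the brightest probe sets, Socs3 had the largest rise of the 10 genes in both intervals. It measured 8.22, 8.24 and 8.56 in B6 at PN0, against 7.84, 7.43 and 7.59 in B6 at E18.5. In A/J the newborn values of 8.31, 8.72 and 8.25 stood against 7.85, 7.84 and 8.08 at E20.5. Neither pair of groups overlapped. Socs3 was 1.65-fold higher at PN0 in B6 (0.72 ± 0.12, adjusted p = 3.7e-05) and 1.42-fold higher in A/J (0.50 ± 0.12, adjusted p = 0.00329). Without A/J PN0 replicate 2, the highest, the A/J difference was 0.36 and was no longer called (adjusted p = 0.0532). The second, dimmer Socs3 probe set gave 0.18 in B6 (limma adjusted p = 0.391) and 0.09 in A/J (adjusted p = 0.714). The Socs3 step at birth thus rests on 1 probe set.

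Of the receptor chains, Il6ra was called in both intervals, Osmr in A/J alone and Il6st in neither. Il6ra was higher by 0.56 ± 0.14 in B6 at PN0 than at E18.5 (adjusted p = 0.00215), with 9.82, 9.89 and 9.62 at PN0, against 9.17, 9.16 and 9.33 at E18.5. In A/J it fell by 0.38 ± 0.14 (adjusted p = 0.0478), with 9.49, 9.46 and 9.39 at PN0, against 10, 9.62 and 9.85 at E20.5. The groups were separate in both strains. Osmr fell by 0.51 ± 0.13 in A/J (1.42-fold lower, adjusted p = 0.00530), with 8.13, 8.35 and 7.97 at PN0, against 8.53, 8.68 and 8.77 at E20.5. In B6 the Osmr difference was 0.19 ± 0.13 and did not pass the test (adjusted p = 0.330). The intervals differ in length and in gestational age, so the B6 and A/J values stand side by side and were not compared.

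The remaining steps at birth were small. Socs2 was higher at PN0 by 0.30 ± 0.10 in B6 (adjusted p = 0.0291) and by 0.32 ± 0.10 in A/J (adjusted p = 0.0232). The second Socs2 probe set gave 0.04 in B6 (adjusted p = 0.805) and -0.04 in A/J (adjusted p = 0.785), so this step rests on 1 probe set. In B6, Stat3 was 1.27-fold higher at PN0 (adjusted p = 0.00270), Jak2 1.23-fold (adjusted p = 0.00745) and Jak1 1.13-fold (adjusted p = 0.0213), and Stat5a fell by 0.26 (adjusted p = 0.0173). Stat6 fell by 0.23 ± 0.08 in A/J (adjusted p = 0.0440), with 9.38, 9.33 and 9.32 at PN0, against 9.55, 9.58 and 9.58 at E20.5. These A/J calls rest on few arrays. Of the 5 A/J calls, 2 were left without E20.5 replicate 1, without E20.5 replicate 3 or without PN0 replicate 1, 1 was left without PN0 replicate 2, and 3 were left without PN0 replicate 3 or, through the shared spread, without B6 E15.5 replicate 2. With the A/J replicates high in esophagus markers left out, which leaves 1 array at E20.5 and assumes that it varies like the other groups, none of the 5 was called. In that fit the differences were 0.43 for Socs3, 0.42 for Socs2, -0.48 for Osmr, -0.56 for Il6ra and -0.20 for Stat6. Without B6 E18.5 replicate 1, 3 of the B6 genes were called, and without B6 PN0 replicate 2, 4 were. With quantile normalization the B6 calls of Jak1 (0.14, adjusted p = 0.0772) and Socs2 (0.25, adjusted p = 0.0561) were lost, and so was that of Jak1 with only the groups compared (adjusted p = 0.0526).

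**Figure D2:**
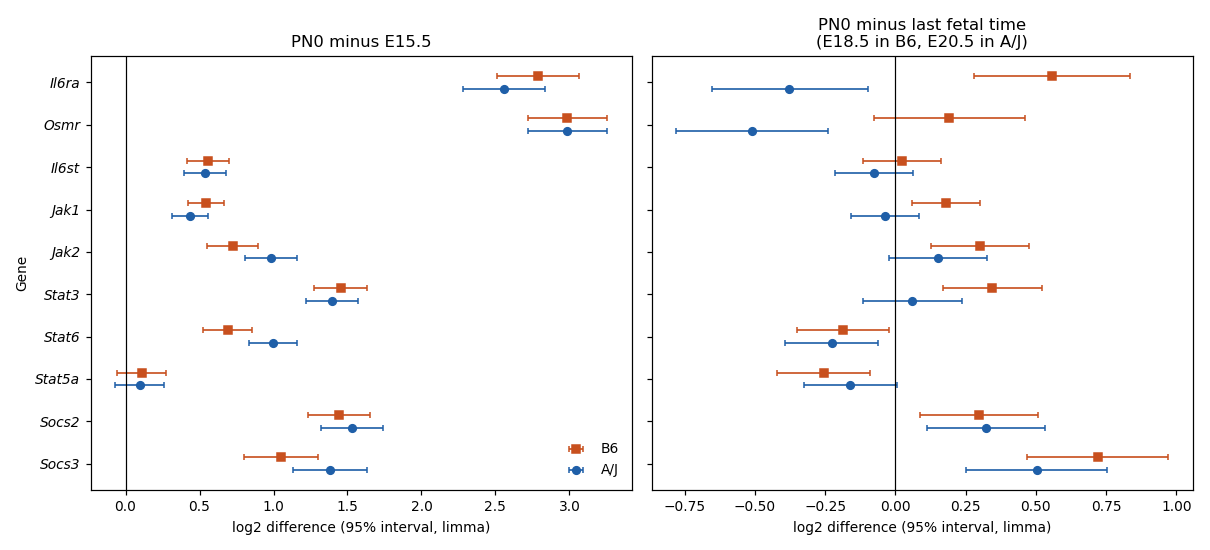
Differences in log2 expression of the 10 genes, with 95% intervals from limma, in B6 (orange squares) and A/J (blue circles): PN0 minus E15.5 on the left and PN0 minus the last fetal age on the right. From E15.5 to PN0 the interval of Stat5a alone spans 0 in both strains. At birth Socs3, read like the others from its brightest probe set, lies furthest to the right, at 0.72 in B6 and 0.50 in A/J. Osmr and Il6ra lie below 0 at birth in A/J.

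Markers of blood-derived cells moved over the same ages. All 9 leukocyte markers were higher at PN0 than at E15.5 in both strains, with median differences of 1.54 in B6 and 1.82 in A/J. Their mean level lay at 8.72 to 8.78 in B6 at PN0, against 7.22 to 7.32 in B6 at E15.5, and at 8.71 to 8.92 in A/J at PN0, against 6.99 to 7.14 in A/J at E15.5. Between the last fetal age and PN0, 8 of the 9 leukocyte markers were higher and 1 lower in B6, and 0 higher and 1 lower in A/J. Of the 8 macrophage markers, 4 were higher and 0 lower in B6 over that interval, and 0 higher and 1 lower in A/J. Of the 7 neutrophil markers, 5 were higher at PN0 than at the last fetal age in each strain. Their mean level lay at 7.28 to 7.50 in B6 at PN0, against 5.82 to 5.97 at E18.5, and at 7.43 to 7.58 in A/J at PN0, against 6.75 to 6.98 at E20.5. Endothelial markers were also higher at PN0 than at E15.5 (5 of 6 in B6 and 6 of 6 in A/J), as were 5 of 6 lung epithelium markers in each strain, and 5 of 6 mesenchyme markers were lower. The remaining epithelium marker, Epcam, was called lower (-0.61 in B6 and -0.36 in A/J). The remaining mesenchyme marker, Tcf21, was called higher (0.85 in B6 and 2.04 in A/J). Macrophage markers were higher too (5 of 8 in B6 and 8 of 8 in A/J), and so were 6 of 7 heart markers in each strain, whose mean level lay at 8.99 to 9.27 in B6 at PN0, against 7.39 to 8.72 at E15.5, and at 9.24 to 9.51 in A/J at PN0, against 7.64 to 9.92 at E15.5. The part of these cell types in the levels of the 10 genes was not tested. In whole lung RNA, more cells of a type and more RNA per cell cannot be told apart.

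Between the strains, few of the 10 genes differed at any shared age. At E15.5 and at E16.5 none was called, at E17.5 Il6ra alone, at E18.5 Jak2 alone and at PN0 Stat6 alone, all lower in B6. Of all probe sets, 2.46% differed in either direction at E15.5 and 8.09% at E16.5. At E17.5 10.9% differed and 6.73% were lower in B6, at E18.5 31.8% differed and 27.7% were lower, and at PN0 19.9% differed and 13.2% were lower. Before adjustment, limma gave a p under 0.05 to 1 of the 10 genes at E15.5 (Il6st, -0.15) and to 1 at E16.5 (Osmr, 0.35). Averaged over the 5 shared ages, Jak2 alone was called (-0.11 ± 0.04, adjusted p = 0.0180), where 41.8% of all probe sets were. With quantile normalization this difference was -0.05 and was not called (adjusted p = 0.310). No strain difference reached 1.5-fold.

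Il6ra measured 8.39, 8.25 and 8.19 in B6 at E17.5, against 9.04, 8.68 and 8.71 in A/J at E17.5. The strains did not overlap at this age, and B6 was 1.45-fold lower (-0.53 ± 0.14, adjusted p = 0.0107). Without A/J E17.5 replicate 1, the highest array, the difference was -0.42 and was not called (adjusted p = 0.0919). At PN0 the order was the other way round, with 9.82, 9.89 and 9.62 in B6, against 9.49, 9.46 and 9.39 in A/J, a difference of 0.33 that did not pass the test (adjusted p = 0.0879). The F test of the 4 strain-by-time terms called Il6ra alone among the 10 genes (F = 5.99, adjusted p = 0.0144), as it did 16.2% of all probe sets, and no single term of it was called. The F test no longer called Il6ra with the replicates high in liver or heart markers left out (F = 4.64, adjusted p = 0.0558) or with those high in esophagus markers left out (F = 4.40, adjusted p = 0.0560).

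Jak2 measured 8.48, 8.68 and 8.72 in B6 at E18.5, against 9.02, 8.77 and 8.87 in A/J at E18.5. The groups did not overlap, and the difference was -0.26 ± 0.09 (adjusted p = 0.0194). The median of all probe sets differed by -0.13 in the same contrast, and with each array centred on its median the Jak2 difference was -0.17 and was not called (adjusted p = 0.198). Without A/J E18.5 replicate 1 it was -0.20 (adjusted p = 0.125), and without B6 E18.5 replicate 1 it was -0.19 (adjusted p = 0.130). Esophagus markers separated the same groups, with a mean level of 5.60 to 6.18 in B6 at E18.5, against 7.02 to 7.33 in A/J at E18.5, and 5 of 8 were called lower in B6, such as the keratin gene Krt4 (-2.57, adjusted p = 0.0141). Their part in the E18.5 differences was not tested, and leaving out replicates high in these markers removed no E18.5 array. Stat6 measured 9.19, 8.91 and 9.14 in B6 at PN0, against 9.38, 9.33 and 9.32 in A/J at PN0. B6 was lower without overlap (-0.26 ± 0.08, adjusted p = 0.0191), and the call was lost without B6 PN0 replicate 2 (-0.18, adjusted p = 0.172) or A/J PN0 replicate 1 (adjusted p = 0.0608), and with only the groups compared (adjusted p = 0.103) or quantile normalization (-0.22, adjusted p = 0.0532).

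Since B6 pups are born earlier, B6 lungs were also set against A/J lungs that were a day older. At B6 E15.5 minus A/J E16.5, 5 genes were lower in B6 (4.96% of all probe sets were), at B6 E16.5 minus A/J E17.5, 6 were (11.3%), and at B6 E17.5 minus A/J E18.5, 6 were (33.2%). Osmr and Il6ra were among them each time, with Il6ra at -0.63, -1.11 and -1.15. In the step that uses A/J E18.5, Jak1 (-0.18) was not called with centred arrays (-0.14, adjusted p = 0.0895) or with quantile normalization (-0.03, adjusted p = 0.760), nor was Stat6 (-0.32) with quantile normalization (-0.15, adjusted p = 0.135). At the last of these steps, B6 E18.5 minus A/J E19.5, none of the 10 was called, where 9.94% of all probe sets differed in either direction. The Il6ra difference there was -0.36 (95% interval -0.64 to -0.08, adjusted p = 0.0937) and that of Osmr -0.34 (-0.61 to -0.07, adjusted p = 0.102), and 4 genes (these 2, Socs3 and Jak1) had a p under 0.05 before adjustment.

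**Figure D3:**
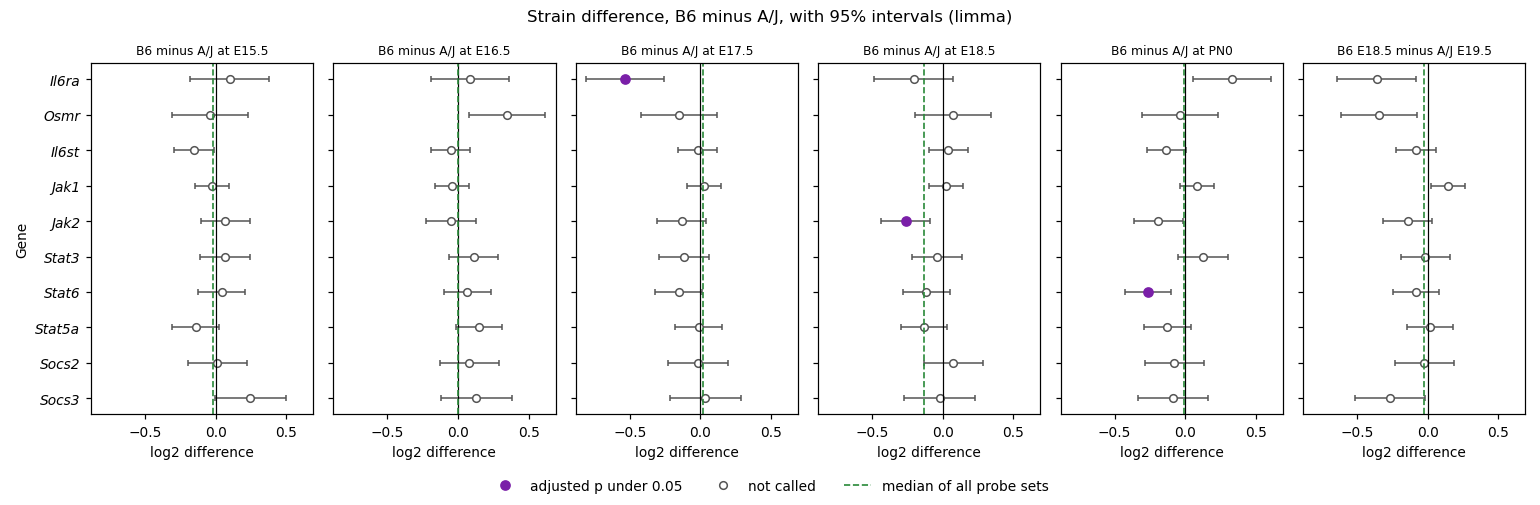
B6 minus A/J differences in log2 expression of the 10 genes at the 5 shared ages and, in the last panel, of B6 at E18.5 against A/J at E19.5; bars are 95% intervals from limma, filled points have an adjusted p under 0.05 and the dashed line is the median of all probe sets. The filled points are Il6ra at E17.5 (-0.53), Jak2 at E18.5 (-0.26) and Stat6 at PN0 (-0.26), and the dashed line lies left of 0 at E18.5 (-0.13).

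Across the 12 group means, the 10 genes followed each other to different degrees, as a description over strains and ages that share the same course of development. Osmr and Il6ra had the highest Pearson r of any pair (0.985), and Osmr had 0.970 with Stat3 and 0.968 with Il6st. Stat5a had the lowest values, from 0.200 with Socs3 to 0.786 with Stat6. The gene of all others most like Osmr was Selenbp1 (r = 0.998), and 1278 genes had an r over 0.9 with it. Il6ra was nearest to Tacc1 (0.994), Stat3 to Cds1 (0.995), Stat6 to Slc44a3 (0.990), Jak2 to Spry2 (0.988) and Il6st to Araf (0.980). Socs2 was nearest to Sftpd, which encodes surfactant protein D (0.985), and Socs3 to Il4ra, an interleukin 4 receptor chain (0.985), while Stat5a had only 76 genes over 0.9.

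Whether the feedback genes varied with the rest of the pathway between litters of 1 group was asked of the deviations of the 36 replicates from their group means. None of the 17 relations of Socs3 or Socs2 with another of the 10 genes passed the test after adjustment. The strongest was that of Socs2 with Stat3 (Pearson r = -0.396, permutation p = 0.0603, adjusted p = 0.857; Spearman rho = -0.395, permutation p = 0.0588, adjusted p = 0.9). Without the 2 replicates farthest from the median it had r = -0.463. With arrays centred on their medians it had r = -0.264 (permutation adjusted p = 0.741), and Socs2 with Osmr was the strongest (r = 0.342, adjusted p = 0.741). Within the strains the relation of Socs2 with Stat3 had r = -0.126 in B6 (15 replicates) and -0.635 in A/J (21 replicates, adjusted p = 0.345).

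A short palindrome, TTCNNNGAA, is the core of the sites that Stat dimers bind, and the Socs genes are known Stat targets, so the RefSeq sequence upstream of the genes was searched for it. Socs2 had no window in these sequences and was not searched. Of the other 9 genes, read in upstream windows of 250 bases, Socs3 alone held a match (the pattern reads the same on both strands). Of the 32851 windows of all genes, 7.02% hold one. No window of the 9 genes held the same palindrome with a spacer longer by 1 base, the spacing that Stat6 prefers, against 5.85% of all windows. The match lies at chr11:117969502-117969530 (GRCm38.p6, minus strand), with the palindrome at positions -154 to -146 from the start of the transcript used for the window, and within the longer span annotated for the gene. It is shown in capitals with 10 bases on each side.
Socs3: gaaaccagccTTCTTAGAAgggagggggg
A match of letters is not a bound site, and binding was not measured.

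The rest of the pathway was read as lists, to be set against the 24.4% of all probe sets higher and 26.6% lower at PN0 in B6, and the 25.2% higher and 25.8% lower in A/J. Of 9 gp130 cytokines measured, 3 were higher at PN0 than at E15.5 in each strain, and 1 was lower in B6 and none in A/J, shares of higher genes near those of all probe sets. Clcf1, a cytokine of the ciliary neurotrophic factor group, was higher by 0.96 in B6 (adjusted p = 1.1e-08) and 0.77 in A/J (adjusted p = 6.8e-07), and Ebi3, a subunit of interleukins 27 and 35, by 0.70 in B6 and 0.60 in A/J. Il6 itself was at 0.05 in B6 (adjusted p = 0.678) and 0.16 in A/J (adjusted p = 0.124). Among partner receptors Lifr, the leukemia inhibitory factor receptor, was higher by 0.89 in B6 and 0.86 in A/J, and Cntfr, the ciliary neurotrophic factor receptor, fell by 0.31 in B6 and by 1.40 in A/J. Of 4 other Jaks and Stats, 1 was higher and 3 lower at PN0 in B6, and 1 higher and 1 lower in A/J. Stat2 was higher by 0.37 in B6 and 0.53 in A/J, and Stat4 fell by 0.61 in B6 and by 0.44 in A/J. Tyk2 (-0.27, limma adjusted p = 0.0131) and Stat5b (-0.30, adjusted p = 0.00865) were also lower in B6, and neither was called in A/J. The medians of these 3 lists were 0.05, -0.12 and -0.28 in B6, and 0.09, -0.24 and 0.10 in A/J.

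Of 14 other feedback genes, 4 were higher and 4 lower at PN0 in B6, and 4 higher and 2 lower in A/J, with medians of -0.04 in B6 and 0.04 in A/J, again near the shares of all probe sets. Cish, a Socs family member and Stat5 target, was higher by 1.88 ± 0.12 in B6 (adjusted p = 9.1e-15) and 1.82 ± 0.12 in A/J (adjusted p = 1.6e-14). Ptpn6, a phosphatase of blood cells, was higher by 0.70 in B6 and 1.01 in A/J, Socs7 by 0.60 in B6 and 0.29 in A/J, while Socs6 fell by 0.39 in B6 and by 0.62 in A/J. At E18.5 Socs6 was also lower in B6 lungs than in those of A/J (-0.69, adjusted p = 5.1e-05). Of 19 other Jak-coupled receptors, 11 were higher and 2 lower at PN0 in B6, and 13 higher and none lower in A/J, with medians of 0.64 in B6 and 0.87 in A/J. They included Ifngr1, an interferon gamma receptor chain (1.92 in B6 and 1.82 in A/J), Il4ra (1.56 in B6 and 1.52 in A/J) and the myeloid receptors Csf2rb (1.55 in B6 and 2.11 in A/J) and Csf3r (1.41 in B6 and 1.96 in A/J). Lepr, the leptin receptor, was higher in B6 at E18.5 by 0.63 (adjusted p = 1.2e-04).

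Genes known as Stat targets, often from other tissues, were read as lists. Of 16 Stat3 targets, 12 were higher and 2 lower at PN0 in B6 (median 0.87), and 13 higher and 2 lower in A/J (median 0.73). Lcn2, which encodes an iron-sequestering defense protein, was higher by 5.59 ± 0.19 in B6 (adjusted p = 1.2e-20) and 5.83 ± 0.19 in A/J (adjusted p = 4.6e-21). The acute phase genes Hp (4.53 in B6 and 4.86 in A/J) and Saa3 (2.28 in B6 and 3.26 in A/J) and the transcription factor Cebpd (2.82 in B6 and 2.09 in A/J) were higher too. At E18.5, 4 of the 16 targets were higher in B6, none was lower and 12 were not called. Their median was -0.025, beside -0.13 for all probe sets, of which 31.8% differed in either direction and 27.7% were lower. Stat3 itself did not differ between the strains at E18.5 by the test (-0.04, 95% interval -0.21 to 0.14, and 0.05 with centred arrays). The largest differences of the list were those of Lcn2, higher in B6 by 2.05 (adjusted p = 5.9e-09), and Saa3, by 0.62 (adjusted p = 0.00876). Neutrophils and macrophages also make several of these RNAs. Of 9 leukocyte markers, 5 were higher in B6 at E18.5 and none was lower (Itgb2 by 0.79 and Fcer1g by 0.53), with a mean level of 8.11 to 8.43 in B6 at E18.5, against 7.78 to 8.12 in A/J at E18.5. Of 7 neutrophil markers 1 was higher (S100a9, 0.37), and of 8 macrophage markers none was higher and 2 were lower. The part of such cells was not tested.

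Of 8 Stat6 targets, 3 were higher and none lower at PN0 in B6, and 5 higher and 1 lower in A/J, with medians of 0.27 in B6 and 0.56 in A/J. Among them were Retnla (7.12 in B6 and 5.93 in A/J), Chil3 (2.94 in B6 and 3.79 in A/J), both secreted proteins of alternatively activated macrophages, and Il4ra. The other 5 were not called in B6 at PN0. At E18.5, Retnla alone of the 8 was higher in B6, by 1.01 (adjusted p = 0.00212). Of the 8, 2 were lower in B6 at E18.5, where 27.7% of all probe sets were lower. Of 6 targets of Stat5 and growth hormone, 2 were higher and 2 lower in B6, and 3 higher and 2 lower in A/J. Cish and the kinase gene Pim1 (0.79 in B6 and 0.55 in A/J) were higher, and Igf1, the growth factor that growth hormone induces in liver, fell by 1.25 in B6 and by 1.74 in A/J, as did Ccnd1, a cell cycle gene, by 0.38 in B6 and by 0.41 in A/J.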

How the data were processed

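Lung RNA was hybridised to Affymetrix Mouse Gene 1.0 ST arrays, and the authors deposited log2 values made by RMA in Affymetrix Expression Console 1.1; the genome build was not given in the sources used here. RMA scales all arrays to 1 distribution, so that a shift shared by most genes is partly removed. Probe sets were named through GEO's platform annotation (21789 with 1 symbol, 1621 with several, 12146 with none), and those with 1 symbol were fitted in limma 3.58.1 (R 4.3.3) with a mean for each of 12 strain and age groups, on 24 residual degrees of freedom, with Benjamini-Hochberg adjustment over all of them. This fit stands in for the study's Bayesian time model and analysis of variance. Precision is limited by the number of arrays, and p-values measure the spread between litter pools. A gene was read from its brightest probe set.

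The genes, lists and tests were chosen with earlier results of these data known. Named list genes were, by rule, up to 4 with the largest change called in both strains. Up to 2 with the largest strain difference at E18.5, called at 1.5-fold, were named as well. For each of the 10 genes those most like it over group means were named too. Il6 was named outside the rule, as the family's defining cytokine, after its values were seen. Tyk2 and Stat5b were likewise named outside the rule, to complete the calls of their list. On simulated data for A/J PN0 minus E15.5 (21789 probe sets), 77% of 1.5-fold and 100% of 2-fold changes were recovered, with 11 false calls. The simulation changed 100 probe sets at each fold and drew independent noise. In the data 25.2% of probe sets were called higher and 25.8% lower in that comparison, so these rates need not hold for them. Alternatives changed the scaling, probe sets, prior, samples and threshold. Same-numbered replicates did not deviate together (mean r -0.003, -0.015 and -0.011), so numbers were not taken as pairs.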

Additional observations from a re-analysis of the deposited data

Results flagged for a closer look

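Il6ra was flagged because its course over the 5 shared ages differed between the strains (limma F test of the strain-by-time terms, adjusted p = 0.0144, F = 5.99). The same test called 16.2% of all probe sets. Set against its value at E15.5, the B6 minus A/J difference of Il6ra was -0.02 at E16.5, and it was -0.63 at E17.5. At E18.5 it was -0.31, and at PN0 it was 0.23 (SE 0.19 each), and none of these single terms was called. F lay between 4.40 and 8.10 over 42 alternatives, of which 2 lost the call. These were the fits without the replicates high in liver or heart markers and without those high in esophagus markers.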

How the results depend on the processing

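The differences between PN0 and E15.5 kept their direction in all 342 recomputed values and their call in all but 4, which were those of Jak1 and Il6st when a fold of 1.5 was required. Over all 52 named calls of the 10 genes, 105 of 1035 recomputed values lost the call and none turned its direction. Alternatives that changed only the threshold, the prior, the probe sets tested or the groups fitted leave the estimate itself unchanged. Its direction could not turn in them, nor through array 2b where B6 E18.5 is not in the comparison. Those values therefore say nothing about direction. A required fold of 1.5 (a 2-fold range for the course over time) left 5 genes over time in B6 and 6 in A/J, 1 from E18.5 to PN0 in B6 and 0 at birth in A/J, 0 between strains at E17.5, E18.5, PN0 and over the shared ages, and 2, 3 and 3 for B6 set against A/J a day older at B6 E15.5, E16.5 and E17.5. The A/J birth count of 5 was 3 with centred arrays, with all probe sets, with only the groups compared, with array 2b left out or without the replicates high in liver or heart markers, and 0 without those high in esophagus markers; these last 2 alternatives were chosen after seeing the data. The strain count at E18.5 (1) was 0 with centred arrays, quantile normalization or only the groups compared. That at PN0 (1) was 0 with quantile normalization or without the replicates high in esophagus markers, and that at E17.5 (1) was 0 without those high in liver or heart markers. The count over the shared ages (1) was 2, with Stat6 added, without dim probe sets, with a trended robust prior or with only the groups compared, and 0 in both marker alternatives, in which the strain-by-time count (1) was 0 too. The count for B6 E18.5 against A/J E19.5 (0) was 1 with quantile normalization (Jak1) or with array 2b left out (Il6ra). The cause of these shifts was not tested.

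Leaving out 1 replicate at a time gave 10 to 10 genes over time and 9 to 9 between PN0 and E15.5 in each strain. It gave 3 to 7 from E18.5 to PN0 in B6 and 1 to 5 at birth in A/J, the lowest without B6 E18.5 replicate 1 and A/J PN0 replicate 2. Between strains it gave 0 to 0 at E15.5 and E16.5, 0 to 1 at E17.5, 0 to 2 at E18.5 (Il6ra was added without A/J E18.5 replicate 2), 0 to 1 at PN0, 1 to 2 over the shared ages, 1 to 1 for the strain-by-time test, 0 to 0 at the last step before birth, and 4 to 5, 6 to 6 and 5 to 6 for the earlier steps against A/J a day older. With the replicate number as a block, the counts were 10 and 10 over time, 9 and 9 for PN0 against E15.5, 7 in B6 and 5 in A/J at birth, and 1 between strains at E18.5, each equal to the count without the block; this pairing has no basis in the labels. No relation of Socs3 or Socs2 passed in any of 4 alternatives.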
